A study of Marchantia polymorpha with 12 samples.

Results

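Genes with no reads in the Mpknox2-1 control thalli and clear reads in a Mpknox2-1 Mpez1 double mutant were examined where they met that condition in 1 of 2 experimental sets and not in both. A gene was taken for a set when it had 0 counts in the 3 controls of that set and at least 10 counts in each of its 3 double mutant libraries. Genes with 0 counts in all 6 controls and at least 10 in all 6 double mutants were not taken, nor was a short list of named loci. This gave 45 genes for set 1 and 49 for set 2, 94 of 19441 genes. The genes were thus chosen by their counts in that set, and those counts are a description without a test.

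Tissue was 14-day thalli, the flat haploid body of the liverwort Marchantia polymorpha, and polyadenylated RNA was sequenced with its strand. In set 1 the control was Mpknox2-1 and the double mutant Mpknox2-1 Mpez1-1, with 3 libraries each. In set 2 they were Mpknox2-1 and Mpknox2-1 Mpez1-2, again with 3 each. All 12 libraries thus carried Mpknox2-1, and each Mpez1 allele was measured in a single set. Column headers of set 2 carry the name Tak2, a female laboratory accession, and those of set 1 do not, so allele, set and any difference in background cannot be told apart. The replicates are biological per the labels, which do not say whether they came from separate cultures.

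MpE(z)1 encodes the enzyme of PRC2, a Polycomb complex that puts methyl groups on histone H3 and keeps genes silent through cell divisions. Genes under such silencing are typically needed in other organs, life stages or conditions, and loss of PRC2 activity is known in plants for the appearance of their transcripts in tissue where they are normally absent. A gene with no reads in a control and reads in a PRC2 mutant has the readout such genes are looked for by, although no chromatin was measured here.

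Gene counts were 7019900 to 12098548 per library in set 1 and 7949703 to 10509741 in set 2. Within groups, chi-square per degree of freedom between replicate pairs was 6.44 to 30.3 in the Mpez1-1 libraries and 2.69 to 4.38 in the Mpez1-2 libraries. The pairs above 20 all involved Mpez1-1 replicate 3, the shallowest library, which stood apart from the other two. Without it, 48 genes met the rule for set 1 and 44 for set 2. All 9 thallus markers looked up had counts in all 12 libraries. Their summed level, in CPM (counts scaled to library size), was 536 to 600 in the controls and 453 to 492 in the double mutants of set 1, and 632 to 681 against 577 to 617 in set 2, without overlap. Single markers differed. In set 1 MpC3HDZ went from 1544, 1747 and 1227 counts to 882, 822 and 512, but MpGCAM1 from 40, 43 and 38 to 53, 93 and 55. In set 2 MpPIN1 went from 1450, 1452 and 1544 to 1468, 1714 and 1569, in shallower libraries. The sperm protamine gene MpPRM had 0 counts except for 2 reads in a Mpez1-2 library. MpBELL1 and MpKNOX1 were looked up as a sporophyte list, a use that was not checked here. Their summed level was 0.977 to 1.36 CPM in the set 1 controls and 5.24 to 5.56 in Mpez1-1. For set 2 it was 0.603 to 0.964 against 6.54 to 9.60. There MpBELL1 went from 3, 2 and 1 counts to 66, 74 and 54, and MpKNOX1 from 7, 4 and 6 to 11, 6 and 8. In set 1 the markers went opposite ways, MpBELL1 from 3, 8 and 5 counts to 44, 47 and 35, and MpKNOX1 from 8, 7 and 8 to 1, 4 and 2. The part of these marker levels in the results was not tested. In bulk tissue fewer cells of a type and less RNA per cell cannot be told apart.

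The name these genes could be given, silent genes that come on in a single set, went against the data. Of the 45 set 1 genes, 44 (97.8%) had each Mpez1-2 library above each control of set 2 in CPM. Of 17002 genes with a count in set 2, 24.8% did so. Of the 49 set 2 genes, 43 (87.8%) had each Mpez1-1 library above each control of set 1, against 28.5% of 17267 genes. No gene had 0 counts in all 6 libraries of the other set. They are therefore called below the set 1 genes and the set 2 genes, after the set in which the counts met the rule. The rule read the other set only to leave out genes that were fully silent and fully on there. The controls of the other set had 0 counts for 15 set 1 genes and 22 set 2 genes, and few reads for most others. A gene with 0 control counts lies above them with a read in each double mutant library, and cannot fall. The shares over all genes, which can go either way, are therefore not a like measure.

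What kept a gene out of the group met in both sets was either reads in the other controls or a count under 10 in the other double mutant. Among set 1 genes, 22 had reads in the set 2 controls and at least 10 counts in every Mpez1-2 library, so that the control reads alone separated them. A further 8 had control reads and also a Mpez1-2 library under 10, and 15 had 0 counts in the set 2 controls and a Mpez1-2 library under 10. Of these 15, 6 had 1 library under 10, 5 had 2 and 4 had all 3. The control reads were few: 11 genes had 1 count over the 3 set 2 controls, 11 had 2 or 3, and 8 had more. For the set 2 genes the same numbers were 21, 6 and 22 genes, with 12 genes at 1 count over the set 1 controls, 7 at 2 or 3, and 8 above. Of the 22 set 2 genes silent in the set 1 controls, 8 had 1 library under 10, 7 had 2 and 7 had all 3. Of the 22, 17 were under 10 counts in Mpez1-1 replicate 3 and 5 of these in that library alone.

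**Figure D1:**
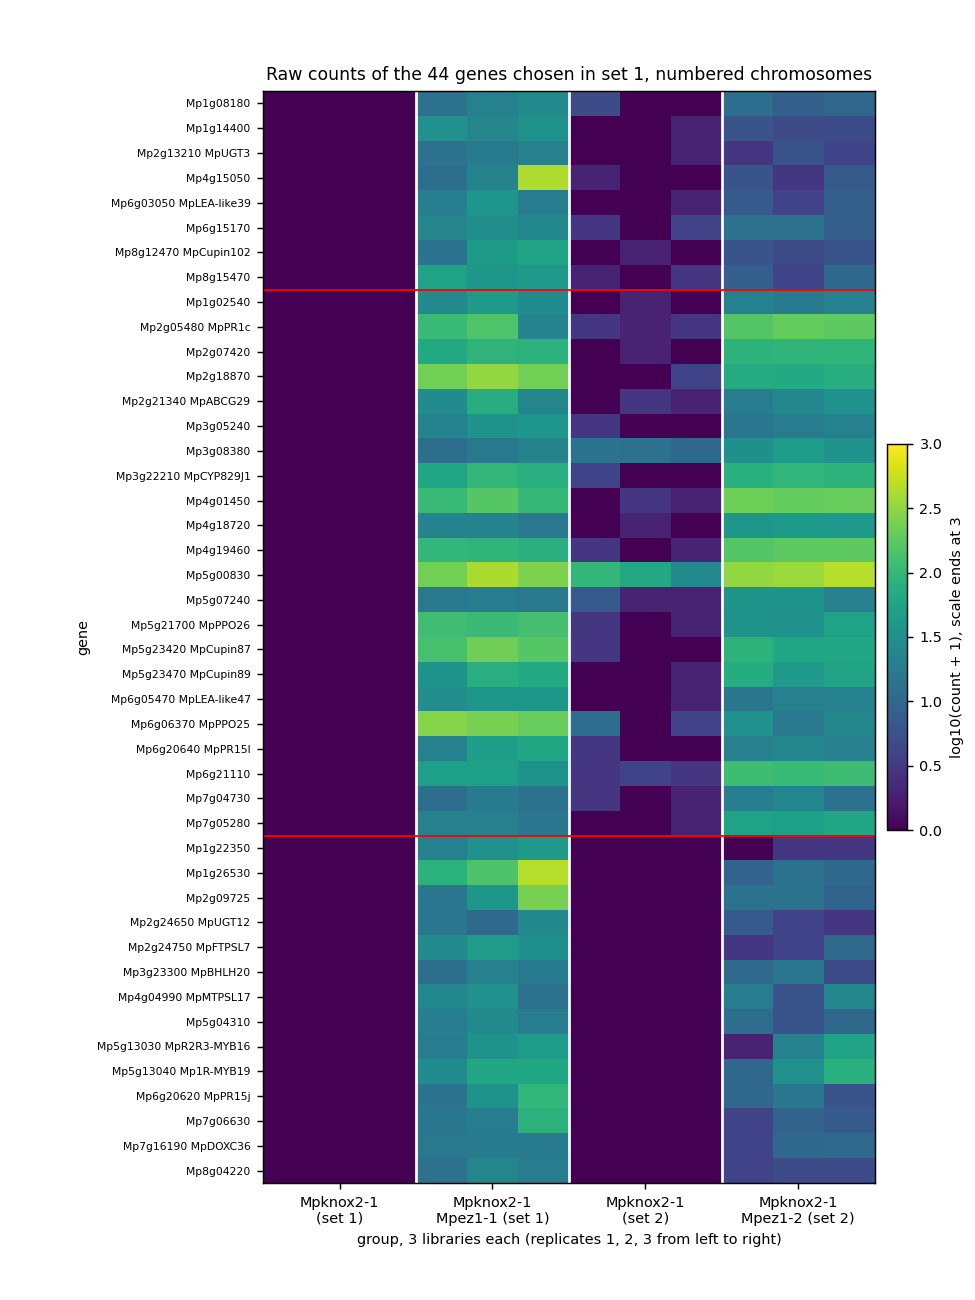
Raw counts of the 44 set 1 genes on numbered chromosomes as log10(count + 1), 1 row per gene and 1 column per library in 4 groups of 3. Red lines part genes with set 2 control reads and a Mpez1-2 library under 10 (top, 8 genes), those with control reads and at least 10 in all Mpez1-2 libraries (middle, 22) and those with no control reads (bottom, 14). The set 2 controls, the third block, are dark for nearly all genes, and the Mpez1-2 block is lit in nearly all rows.

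In their own set, set 1 genes had a smallest double mutant count of 10 to 229 with a median of 21, and set 2 genes one of 10 to 130 with a median of 18. Genes on in all double mutants, the closest group, had medians of 29.5 in set 1 and 44 in set 2. Against a floor of 3 counts summed over the 3 controls, set 1 genes were at least 17.7-fold to at least 409-fold higher, and set 2 genes at least 12.3-fold to at least 194-fold. Among all genes with 0 control counts, 2.94% of 3328 in set 1 and 2.76% of 3694 in set 2 reached the minimum. Just inside the limit in set 1 stood MpUGT12, with counts of 14, 10 and 24. Just outside was MpGH3.2, of a family that joins amino acids to hormones in flowering plants, with 9, 17 and 22.

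Of the 45 set 1 genes 23 had enough counts to be tested in the other set, and of the 49 set 2 genes 25. Genes that pass such a filter through the double mutants alone had to differ, so their calls describe those genes and support nothing about the rest. In the set 2 comparison 22 set 1 genes rose and 1 did not pass the test, where 20.4% of all 12744 genes tested rose (edgeR adjusted p under 0.05). In the set 1 comparison 25 set 2 genes rose, where 26.5% of 12633 rose. None of either list was called lower by edgeR or DESeq2, nor at an unadjusted p under 0.05. With so few control reads hardly any of them could be called lower. The 17.4% and 24.1% of all genes called lower, at an adjusted p under 0.05, are therefore not a like measure.

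The largest control counts in the other set belonged to Mp5g00830, an unnamed gene. From 0 reads in set 1 controls it went to 227, 420 and 257 in Mpez1-1. The set 2 controls had 96, 63 and 26 reads, and Mpez1-2 had 323, 351 and 462. The groups of set 2 did not overlap, and the gene rose by 2.81 on the log2 scale (SE 0.40, edgeR adjusted p = 0.00469). In CPM the double mutants were alike, at 36.7 ± 8.78 in set 1 and 42.6 ± 5.37 in set 2 (SD, n = 3 libraries each), whereas the controls were at 0 and 6.05 ± 3.36. With the replicate number as a block its adjusted p was 0.051.

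Mp3g08380 was alike in this respect. Set 2 controls had 13, 12 and 9 reads and Mpez1-2 had 31, 44 and 33, a rise of 1.86 on the log2 scale (SE 0.32, edgeR adjusted p = 0.000410), against 11, 15 and 21 counts from 0 in set 1. It was the single set 1 gene with enough reads on the opposite strand to be tested in its own set, a measure the rule did not use. Controls of set 1 had 9, 7 and 4 opposite-strand reads and Mpez1-1 had 21, 18 and 31, without overlap. These reads rose by 2.27 on the log2 scale (SE 0.46, edgeR adjusted p = 0.00826). In set 1, 14.2% of 1825 genes rose on that strand and 5.59% fell.

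Of the 94 genes 31 had a symbol, 20 in set 1 and 11 in set 2. Among polyphenol oxidases, which oxidise phenols, MpPPO25 went from 0 to 281, 240 and 202 counts in set 1. In set 2 it had 11, 0 and 3 reads without and 32, 15 and 23 with the Mpez1-2 mutation. The set 2 groups did not overlap, and the change was 2.51 on the log2 scale (SE 0.70, edgeR adjusted p = 0.0183). The call was lost, at 2.28 and 2.14, without control replicate 3 or without Mpez1-2 replicate 1 of set 2, whereas without control replicate 1, which held 11 of the reads, the change was 4.04 (edgeR adjusted p = 0.000386). Its CPM was 29.8 ± 4.44 in Mpez1-1 and 2.69 ± 1.19 in Mpez1-2, a ratio of 0.0904. MpPPO26 had 119, 111 and 131 counts in Mpez1-1, and 34, 32 and 52 in Mpez1-2 against 2, 0 and 1 in the set 2 controls. It rose by 5.32 there (SE 0.55, edgeR adjusted p = 4.48e-06), and by 6.14 without control replicate 1.

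Cupin and germin-like genes, which encode small barrel-fold proteins that often sit in the cell wall, were the named family with most members. MpCupin87, MpCupin89, MpCupin102, MpPR15j and MpPR15l belonged to set 1 and MpCupin51 to set 2. MpCupin87 had 132, 223 and 161 counts in Mpez1-1 and 85, 60 and 62 in Mpez1-2, against 2, 0 and 0 in the set 2 controls. MpCupin89 had 35, 76 and 67 counts in Mpez1-1 and 71, 40 and 56 in Mpez1-2, and a single read in a set 2 control kept it from being silent in all 6. Both rose in set 2, by 6.65 (SE 0.56) and 7.12 (SE 0.63) on the log2 scale (edgeR adjusted p = 5.72e-07 and 9.97e-07). MpPR15l, with 19, 24 and 19 counts in Mpez1-2 and 2, 0 and 0 in its controls, rose by 4.90 (SE 0.69, edgeR adjusted p = 7.75e-05). Without the control library that held the reads, the fitted changes were 9.20 for MpCupin87 and 7.45 for MpPR15l (without control replicate 1). For MpCupin89 the change was 8.90 (without control replicate 3). The controls left in these fits were at 0, so the changes had to grow and are not measured sizes. MpCupin102, with 5, 4 and 5 counts in Mpez1-2 and 1 control count, was 16.1 times its controls over the pooled reads (95% counting interval 2.45 to 680). MpCupin51 had 14, 14 and 23 counts in Mpez1-2 and 10, 1 and 7 in Mpez1-1. Of the 114 genes with such symbols, 45 were tested in set 1, of which 26 rose and 8 fell, and 57 in set 2, of which 30 rose and 5 fell. Their median log2 fold changes were 1.30 and 1.03, where all genes tested had medians of -0.021 and -0.0038, and 26.5% and 20.4% of them rose and 24.1% and 17.4% fell.

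MpFTPSL7 and MpMTPSL17 are terpene synthase genes by name. MpFTPSL7 had 27, 43 and 31 counts in Mpez1-1 and 2, 3 and 10 in Mpez1-2, with 0 in all controls, at least 5.74-fold higher in set 2. MpMTPSL17 had 24, 32 and 12 in Mpez1-1 and 17, 5 and 23 in Mpez1-2, at least 17.2-fold higher in set 2. A single library short of 10 kept MpMTPSL17 out of the genes on in all double mutants. Terpenes are stored in oil body cells, and the summed level of 3 oil body genes (MpSYP12B, MpC1HDZ and MpERF13) was also higher in the double mutants, at 252 to 255 against 138 to 146 CPM in set 1 and at 81.8 to 90.3 against 54.1 to 64.2 CPM in set 2. The part of oil body cells in the terpene synthase values was not tested. Of 38 terpene synthase symbols, 17 of 22 tested rose and 2 fell in set 1, with a median of 2.12, and 11 of 18 rose and 1 fell in set 2, with a median of 1.14. Of all genes tested 26.5% rose and 24.1% fell in set 1, and 20.4% and 17.4% in set 2.

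MpCYP829J1, a cytochrome P450 gene, had 59, 97 and 74 counts in Mpez1-1 and 80, 94 and 87 in Mpez1-2, with 3 reads in a set 2 control. It rose by 6.47 in set 2 (SE 0.47, edgeR adjusted p = 1.35e-07), and by 9.52 without control replicate 1, which held all 3 reads. MpCYP829-like29, a set 2 gene, had 12, 23 and 37 counts in Mpez1-2 and the higher counts of 75, 85 and 98 in Mpez1-1, where 1 control read stood against it. Its rise in set 1 was 7.96 (SE 0.53, edgeR adjusted p = 1.45e-05), and 9.64 without control replicate 1. MpPKS/CHS4, whose name places it with chalcone synthases, the enzymes that start flavonoid synthesis, had 116, 140 and 134 counts in Mpez1-2 and 51, 67 and 20 in Mpez1-1, with 1 set 1 control read. It rose by 7.0 in set 1 (SE 0.72, edgeR adjusted p = 0.000141), and by 8.64 without control replicate 2. For each of these genes the library left out held all the control reads. The larger changes without it start from 0 counts and are not measured sizes. The P450 and chalcone synthase genes were thus on in both double mutants by their counts.

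Several genes with weaker signals in the second allele had enzyme or transport names. MpABCG29, of a transporter family that exports small molecules and lipids, had 27, 73 and 23 counts in Mpez1-1 and 17, 24 and 32 in Mpez1-2, and rose by 4.62 in set 2 (SE 0.61, edgeR adjusted p = 4.32e-05), and by 5.47 without control replicate 2. The glycosyltransferase genes MpUGT3 and MpUGT12 had 12, 16 and 19 and 14, 10 and 24 counts in Mpez1-1 but 2, 5 and 3 and 6, 3 and 2 in Mpez1-2. The dioxygenase gene MpDOXC36 had 15, 16 and 16 against 3, 9 and 10. These last were too low in set 2 to be tested, and all their Mpez1-2 libraries held at least 2 reads.

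MpPR1c, of the pathogenesis-related PR1 family, had 105, 148 and 21 counts in Mpez1-1 and 156, 195 and 180 in Mpez1-2, where the controls had 2, 1 and 2. It rose by 6.82 in set 2 (SE 0.26, edgeR adjusted p = 2.05e-10). MpLEA-like39 and MpLEA-like47 are named for late embryogenesis abundant proteins, which protect drying cells. MpLEA-like47 had 29, 38 and 38 counts in Mpez1-1 and 14, 19 and 20 in Mpez1-2, and rose by 5.45 in set 2 (SE 0.74, edgeR adjusted p = 5.67e-05), and by 7.23 without control replicate 3. MpLEA-like39 had 18, 37 and 17 against 6, 3 and 7. Each had 1 read in a set 2 control. For MpLEA-like47 it was in control replicate 3, so the change without that library starts from 0 counts and is not a measured size.

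Of 72 late embryogenesis abundant and oleosin symbols, 44 of 63 tested rose and 6 fell in set 1, and 22 of 49 rose and 5 fell in set 2, with medians of 3.31 and 0.46. Of all genes tested 26.5% rose and 24.1% fell in set 1, and 20.4% and 17.4% in set 2. Of 38 pathogenesis-related symbols other than the germin-like ones, 21 were tested in each set and 20 rose in each, 1 falling in set 2, with medians of 5.39 and 4.59.

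Transcription factor genes were among both lists, and the chromatin genes by name were set 2 genes. MpBHLH20, known as MpBNB, is the bHLH gene that commits cells to become gametangium initials. It had 0 counts in all 6 controls, 11, 19 and 16 in Mpez1-1 and 10, 14 and 4 in Mpez1-2, so that the last library alone left it outside the genes on in all double mutants. In CPM it was at 1.89 ± 0.476 and 1.07 ± 0.583, and at least 20.8-fold and at least 10.7-fold higher. The summed level of the 8 gametangium and sperm genes looked up, MpBNB included, was 174 to 179 CPM against 161 to 171 in set 1, and 223 to 246 against 238 to 248 in set 2. The sum mixes opposite changes. MpRKD (Mp3g04030) fell by 0.46 in set 1 and by 0.29 in set 2 on the log2 scale (edgeR adjusted p = 0.0142 and 0.00338), whereas MpGCS1 (Mp4g01100) and MpCEN1 (Mp1g00710) rose in set 1, by 1.32 and 0.36 (edgeR adjusted p = 0.00143 and 0.0123). MpBHLH8, a set 2 gene of the same family, had 12, 15 and 16 counts in Mpez1-2 and 12, 13 and 9 in Mpez1-1, 1 read short in a single library. Its set 1 controls were at 0, so it passed the count filter through Mpez1-1 alone and its call there could only be higher. It was at least 15.4-fold higher in set 1. Of 49 bHLH symbols, 11 of 40 tested rose and 11 fell in set 1, and 14 of 38 rose and 3 fell in set 2. Of 57 MYB symbols, 11 of 48 rose and 16 fell in set 1, and 12 of 47 rose and 2 fell in set 2. Of all genes tested 26.5% rose and 24.1% fell in set 1, and 20.4% and 17.4% in set 2.

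MpR2R3-MYB16 and Mp1R-MYB19, adjacent MYB genes, had the least even Mpez1-2 libraries of the set 1 genes. MpR2R3-MYB16 had 1, 20 and 55 counts there and 17, 33 and 44 in Mpez1-1. Mp1R-MYB19 had 9, 32 and 79 there and 28, 60 and 61 in Mpez1-1, all controls being at 0. Both were lowest in replicate 1 and highest in replicate 3 of Mpez1-2. Mp1R-MYB19 changed by 8.39 on the log2 scale in set 2 (SE 2.10) and did not pass (edgeR adjusted p = 0.0597), although its groups did not overlap. From controls at 0 its log2 changes are not measured sizes, and the gene was at least 45.95-fold higher in set 2. Without Mpez1-2 replicate 3 it passed, at 7.5 (edgeR adjusted p = 0.00228), and without replicate 1 likewise, at 8.87 (edgeR adjusted p = 0.000905). Nearby, MpR2R3-MYB19 (Mp5g13060) was on in all 6 double mutants, with 459, 514 and 493 counts in Mpez1-2, and Mp5g13020 on the other side rose in both sets, by 5.73 and 4.47. Mp5g13050 in between had 0 counts in all 12 libraries.

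Of the set 2 genes, MpLHP2 is named for LIKE HETEROCHROMATIN PROTEIN, whose Arabidopsis relative binds the histone mark that PRC2 sets. It had 11, 19 and 17 counts in Mpez1-2 and 4, 7 and 1 in Mpez1-1, with 0 in all controls. In CPM that was 1.76 ± 0.366 and 0.465 ± 0.310, at least 18-fold and at least 5.43-fold above the floor. The gene beside it, MpE(z)3 (Mp5g22900), had 0 to 2 counts in each library. MpARID3, named for an AT-rich DNA-binding domain, had 19, 37 and 20 counts in Mpez1-2 and 14, 12 and 4 in Mpez1-1. MpNAC10, of the NAC transcription factor family, had 23, 20 and 24 against 10, 2 and 3. The Polycomb symbols looked up numbered 10, by a list that names LHP1 and so misses MpLHP2. None of the 10 was a set 1 or set 2 gene, and 3 were on in all double mutants. Of 8 tested 3 rose and 1 fell in each set. Of all genes tested 26.5% rose and 24.1% fell in set 1, and 20.4% and 17.4% in set 2.

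**Figure D2:**
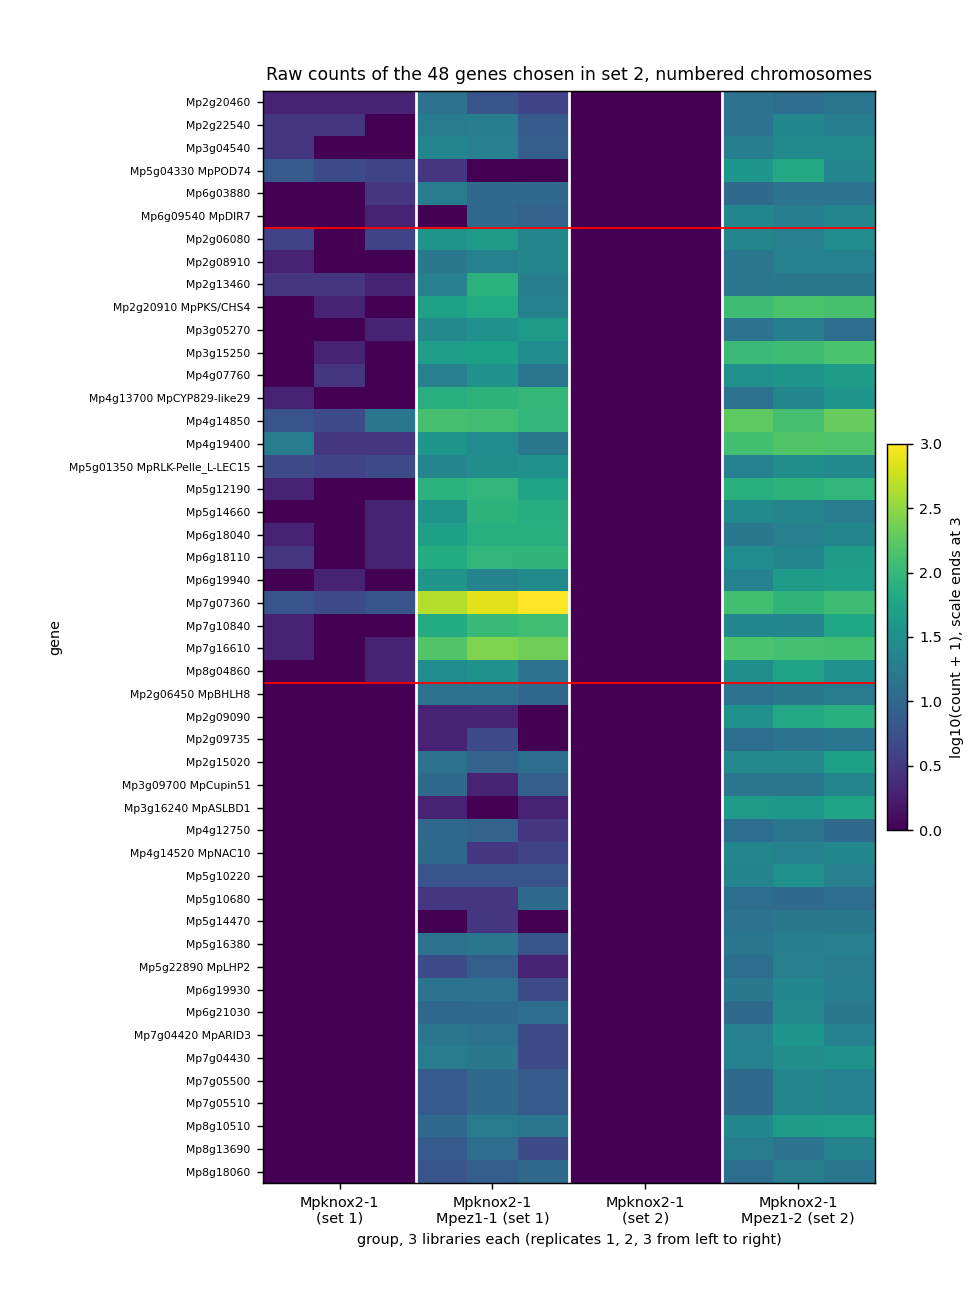
Raw counts of the 48 set 2 genes on numbered chromosomes as log10(count + 1), arranged as for the set 1 genes. Red lines part genes with set 1 control reads and a Mpez1-1 library under 10 (top, 6 genes), those with control reads and at least 10 in all Mpez1-1 libraries (middle, 20) and those with no set 1 control reads (bottom, 22). Mp2g09090, MpASLBD1 and Mp5g14470 are dark across the whole of set 1.

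A small number of genes came closest to being on with 1 allele alone. MpASLBD1, of the LOB-domain transcription factor family that marks organ boundaries in flowering plants, had 41, 39 and 55 counts in Mpez1-2 and 1, 0 and 1 in Mpez1-1, with 0 in all controls. Its CPM was 5.08 ± 0.747 against 0.0883 ± 0.0770. Mp2g09090 had 33, 64 and 78 against 1, 1 and 0, or 6.47 ± 2.12 against 0.0773 ± 0.0674 CPM. Mp5g14470 had 13, 15 and 15 against 0, 2 and 0, and Mp2g09735 had 11, 13 and 14 against 1, 4 and 0. The first 3 genes were under the floor of 3 counts in Mpez1-1, so no fold is given there, and Mp2g09735 was at least 2.26-fold higher. Among the set 2 genes, 5 had fewer than 10 reads in the Mpez1-1 libraries together, and MpPOD74 was the fifth. MpDIR7, of the dirigent family that steers the coupling of phenolic radicals, had 24, 18 and 23 counts in Mpez1-2 and 0, 9 and 8 in Mpez1-1, with 1 read in a set 1 control. Of 59 dirigent symbols, 35 of 50 tested rose and 5 fell in set 1, and 34 of 52 rose and 1 fell in set 2, against 26.5% higher and 24.1% lower of all genes tested in set 1 and 20.4% and 17.4% in set 2.

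MpPOD74, a class III peroxidase gene of the family that builds and oxidises cell wall polymers, was above its controls in set 2 and below them in set 1. It went from 0 counts to 37, 63 and 23 in set 2, at least 47.1-fold. In set 1 its controls had 6, 4 and 3 reads and Mpez1-1 had 2, 0 and 0, all below the controls in CPM. Over the pooled set 1 reads Mpez1-1 was at 0.209 of the controls (95% counting interval 0.0229 to 0.923), and the counts were too low to be tested. Below-control values in all 3 double mutant libraries were found for 24.1% of genes with a count in set 1, and for 1 of the 49 set 2 genes. Such values need reads in each control, and 22 of the 49 had 0 counts over the set 1 controls and 12 had 1. The 2 shares are therefore not alike. Beside it, MpPOD73 (Mp5g04320) fell by 0.51 in set 1 (SE 0.13, edgeR adjusted p = 0.00980) and rose by 1.13 in set 2 (SE 0.09, edgeR adjusted p = 1.09e-06). MpPOD75 (Mp5g04340) rose in both, by 4.06 (SE 0.41) and 5.0 (SE 0.12). Of 164 peroxidase symbols, 25 of 82 tested rose and 28 fell in set 1, and 56 of 120 rose and 14 fell in set 2, where 26.5% and 20.4% of all genes rose and 24.1% and 17.4% fell. The difference between the sets was not tested.

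In the same stretch Mp5g04310, a set 1 gene, was the single member with more reads on the opposite strand than on its own over the 6 double mutants. Its own strand had 18, 26 and 17 counts in Mpez1-1 and 11, 5 and 9 in Mpez1-2. On the opposite strand it had 1 to 3 counts in each set 1 library, 20, 22 and 23 in those of the set 2 controls, and 33, 31 and 52 in those of Mpez1-2. The opposite-strand reads were thus seen mainly in set 2. They rose there (edgeR adjusted p = 0.0253), where 10.8% of 1549 genes rose on that strand and 5.81% fell. Over the Mpez1-1 libraries the opposite strand held 173 counts in all 45 set 1 genes, Mp3g08380 included, against 9697 counts in the first tables, and over the set 1 controls it held 41. Over the Mpez1-2 libraries it held 98 in all 49 set 2 genes, against 5612, and over the set 2 controls 2. No set 2 gene had enough opposite-strand reads to be tested in either set.

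Among set 1 genes, Mp1g22350 was the 1 gene without separated groups in set 2. It had 20, 32 and 41 counts in Mpez1-1 and 0, 2 and 2 in Mpez1-2. The adjacent Mp1g22360 had 30168, 35812 and 29008 counts in Mpez1-1 and 12088, 12916 and 15909 in Mpez1-2, up by 6.22 (SE 0.40) and 4.14 (SE 0.19) on the log2 scale from 270 to 1129 counts in the controls. How the authors assigned reads that touch both genes is not given, so the small counts of Mp1g22350 are uncertain.

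Levels in the double mutants spread widely between the sets. The ratio of CPM in the other set's double mutant to that in their own had a median of 0.422 for set 1 genes, from 0.0228 to 2.80, and 0.596 for set 2 genes, from 0.0119 to 14.4. Since the minimum was asked of the own set only, ratios below 1 are favoured by the choice. Even so, 12 set 1 genes and 13 set 2 genes had ratios of 1 or more. At the upper end Mp7g07360, a set 2 gene, had 124, 90 and 115 counts in Mpez1-2 and 468, 736 and 2856 in Mpez1-1. It was a set 2 gene because the set 1 controls had 5, 4 and 5 reads, and it rose in set 1 by 8.69 (SE 1.43, edgeR adjusted p = 0.00686), and by 7.31 without Mpez1-1 replicate 3.

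**Figure D3:**
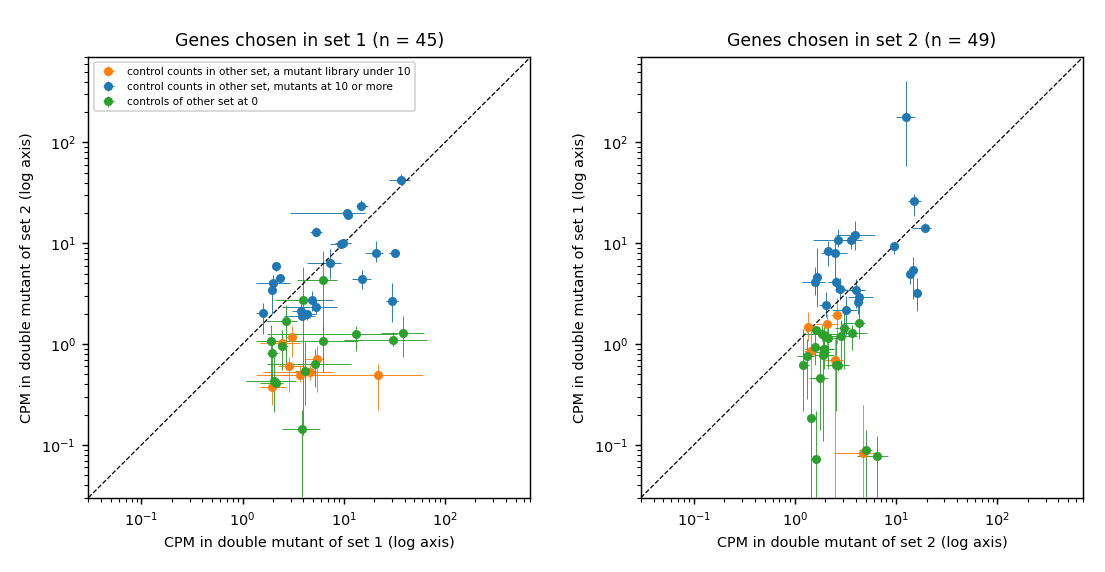
Mean CPM of each gene in the double mutant of its own set (horizontal) and of the other set (vertical), both on log axes, for 45 set 1 genes (left) and 49 set 2 genes (right). Bars run from the lowest to the highest of 3 libraries and end at the axis where a library is at 0, the dashed line marks equal CPM, and colours give the counts in the other set. Genes whose other controls were at 0 all lie below the line. The rule favours this, since each was kept through a low count in the other double mutant. Mp7g07360 lies farthest above the line.

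Mp7g16610 and Mp3g15250 were strong with both alleles. Mp7g16610 had 140, 127 and 123 counts in Mpez1-2 and 151, 264 and 217 in Mpez1-1, against 1, 0 and 1 in the set 1 controls, where it rose by 8.47 (SE 0.43, edgeR adjusted p = 5.19e-06). Mp3g15250 had 109, 115 and 142 against 46, 49 and 28, with 1 set 1 control read, and rose by 6.86 there (SE 0.56, edgeR adjusted p = 4.21e-05), and by 8.5 without control replicate 2. MpRLK-Pelle_L-LEC15, a receptor-like kinase gene by name, had 20, 29 and 26 counts in Mpez1-2 and 22, 30 and 32 in Mpez1-1. With 4, 3 and 4 reads in the set 1 controls it rose by 3.33 (SE 0.38, edgeR adjusted p = 0.000211). Among set 1 genes Mp2g18870 was likewise strong, with 229, 323 and 230 counts in Mpez1-1 and 69, 68 and 73 in Mpez1-2. It rose by 6.15 in set 2 (SE 0.51, edgeR adjusted p = 4.84e-07) and by 9.22 without control replicate 3. For Mp3g15250 and Mp2g18870 the library left out held all the control reads. The changes without it start from 0 counts and are not measured sizes.

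Mp4g19400 and Mp4g14850 had more control reads than most set 2 genes. Mp4g14850 had 5, 4 and 14 reads in the set 1 controls and 129, 120 and 93 in Mpez1-1, a rise of 4.28 (SE 0.42, edgeR adjusted p = 0.000124; 5.15 without control replicate 3), and 179, 130 and 199 in Mpez1-2. Mp4g19400 had 17, 2 and 2 in the set 1 controls, 37, 27 and 15 in Mpez1-1 and 124, 154 and 149 in Mpez1-2. Its set 1 groups overlapped in raw counts, with control replicate 1 above a double mutant library, but not in CPM. Its change of 2.32 (SE 0.70, edgeR adjusted p = 0.0250) did not pass without control replicate 2 (1.84), without control replicate 3 (1.96), without Mpez1-1 replicate 1 (1.99) or without Mpez1-1 replicate 2 (2.39). Without control replicate 1, which held 17 of the reads, it was 4.03 (edgeR adjusted p = 0.00226).

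The highest of the 3 Mpez1-1 libraries was over 3 times the lowest in CPM for 9 of 45 set 1 genes, where 1.8% of the 12026 genes with at least 10 counts in each Mpez1-1 library showed this. The highest library was replicate 3 for 8 of the 9, and for 186 of the 217 genes of the whole table. No set 2 gene had such a spread in Mpez1-2, where 0.113% of 12418 genes did. These shares over all genes were not matched in counts. The chosen genes were low, with a median smallest count of 21 in set 1 and 18 in set 2. Mp4g15050 had 11, 21 and 433 counts in Mpez1-1, a spread of 45.1 times in CPM. Mp2g09725 had 14, 38 and 239, Mp1g26530 had 81, 144 and 466, Mp7g06630 had 14, 17 and 84, and MpPR15j had 13, 33 and 97. Replicate 3 was the highest library in each of these, whereas MpPR1c was lowest there. The part of that library in the values of these genes was not tested.

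The same library was high in a run of neighbours. Mp7g07360 stands between Mp7g07350, with 412, 740 and 1230 counts in Mpez1-1, and Mp7g07370, with 90, 199 and 513. Mp7g07350 rose in both sets, by 8.48 (SE 0.81) and 7.76 (SE 0.47), and Mp7g07370 rose in set 1 by 8.02 (SE 1.40). In Mpez1-2 Mp7g07370 had 3, 6 and 5 counts. Mp7g07340 did not pass in either set (edgeR adjusted p = 0.395 and 0.416).

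**Figure D4:**
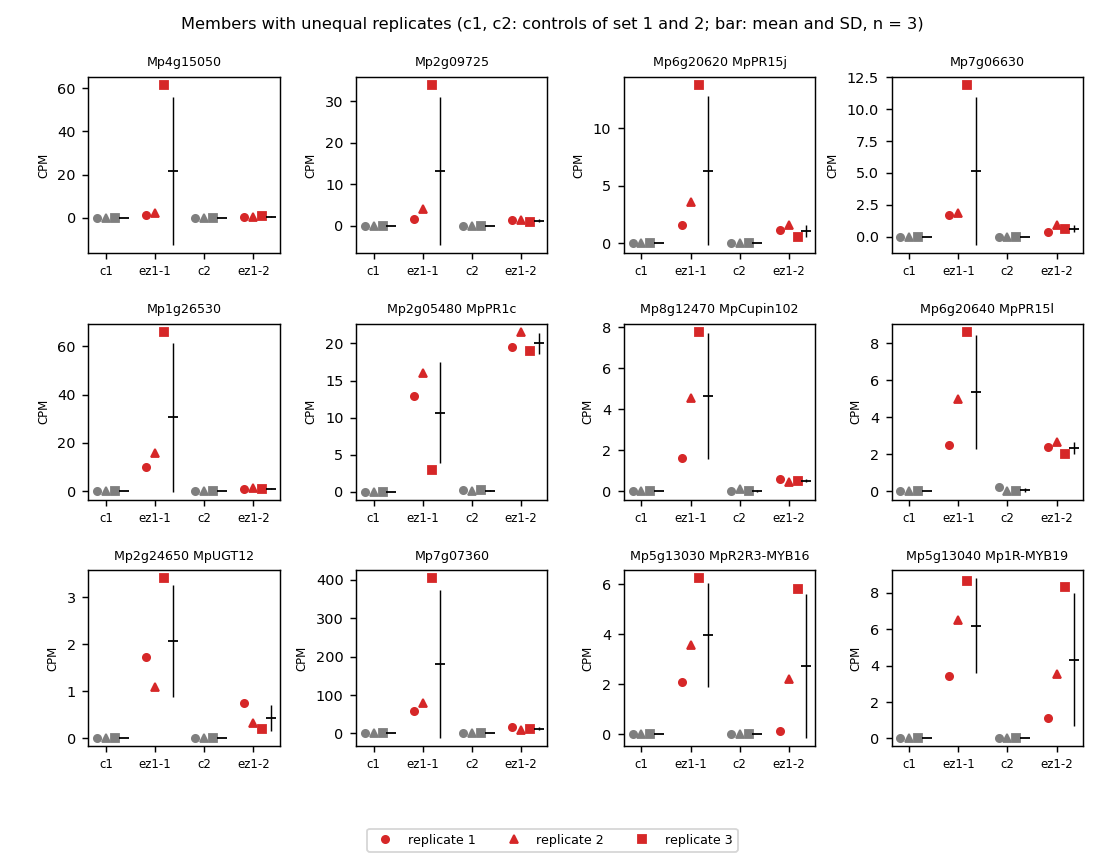
CPM per library for the 9 set 1 genes whose Mpez1-1 libraries differed by over 3 times, and for Mp7g07360, MpR2R3-MYB16 and Mp1R-MYB19, with controls in grey and double mutants in red. Marker shapes give replicates and the black bar gives the mean and SD of 3 libraries. Replicate 3 of Mpez1-1 is the highest in all panels but that of MpPR1c, and the MYB genes also spread in Mpez1-2.

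Many of the genes stood beside others that rose. Directly beside set 1 genes, outside both lists and the genes on in all double mutants, were 83 genes, of which 34 had enough counts in set 1. Of these 16 rose (47.1%) and 7 fell, where 26.5% of all genes tested rose, with a median log2 fold change of 0.26. Beside set 2 genes 45 of 88 had enough counts in set 2. Of these 26 rose (57.8%) and 3 fell, where 20.4% of all genes rose, with a median of 1.13. Among the neighbours Mp5g14670 rose in set 2 by 6.25 (SE 0.18), beside Mp5g14660, and MpPYL4, of the abscisic acid receptor family, rose by 6.30 (SE 0.72), beside Mp8g18060.

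**Figure D5:**
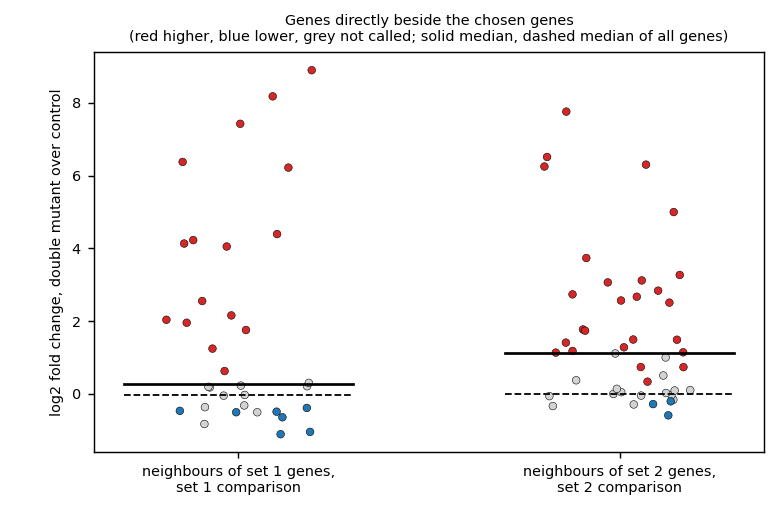
Log2 fold change, double mutant over control in the same set, of the genes directly beside set 1 genes (left, 34 tested) and set 2 genes (right, 45 tested). Red points rose, blue points fell and grey points did not pass. The solid line is their median, at 0.26 and 1.13, and the dashed line the median of all genes tested.

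Genes of both lists also stood close together. Mp3g05240 of set 1 and Mp3g05270 of set 2 lay in a stretch where Mp3g05230 rose in both sets, by 6.38 and 4.31. Mp2g09725 of set 1 and Mp2g09735 of set 2 were parted by Mp2g09730, which had 0 counts in all 12 libraries. MpCupin89 adjoined MpPR15g (Mp5g23460), which was on in all 6 double mutants, and 3 genes with 0 to 8 counts in each library parted MpPR15g from MpCupin87. The neighbours Mp6g19930 and Mp6g19940, and MpARID3 and Mp7g04430, were both set 2 genes. Mp7g05500 and Mp7g05510 had identical counts in all 12 libraries, 10, 22 and 20 in Mpez1-2 and 6, 10 and 6 in Mpez1-1, so they are 1 signal counted under 2 identifiers. None of the 94 genes was among the 146 gene rows of the V chromosome.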

How the data were processed

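RNA-seq of 12 thallus libraries was analysed. The authors deposited raw counts per gene (19441) and transposable element copy (89262), in 2 tables per library. Trim Galore and STAR are named, without versions, in the submitters' processing notes. The counter, how it treats shared reads, and the build were not stated there or in the file headers. The second tables were read as the opposite strand from their naming and values. Symbols came from RefSeq names of assembly MpTak2 version 7.1 by identifier number (17624 matched, 3088 with a symbol), with no coordinates or sequences taken.

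Genes and lists were chosen with earlier results of these data known. Each set's 6 libraries were fitted with edgeR 4.0.16 in R 4.3.3 (quasi-likelihood test, filterByExpr with minimum count 10 and total 15, TMM scaling, Benjamini-Hochberg adjustment over all genes tested, threshold 0.05). DESeq2 1.42.0 was an alternative. The SE is the log2 fold change over the square root of F. Where all controls in a fit were at 0 counts, its log2 change is not a measured size. CPM used TMM-scaled library sizes of each set's own fit, so levels set side by side across sets come from separate scalings. Folds from 0 counts use a floor of 3 counts over 3 libraries, and ratios carry exact 95% intervals; both cover counting error only. The named genes were all members with a symbol, those with the largest and smallest counts, those with most control counts in the other set and adjacent members. Further genes were picked with their values in view. The fit was run on simulated data. These did not model genes with controls at 0 counts and low double mutant counts, so calls on such genes were not checked. No sequences are shown, and 1 gene that met the naming rule is not reported here.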

Additional observations from a re-analysis of the deposited data

Results flagged for a closer look

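MpPOD74 (Mp5g04330) was singled out because every double mutant library moved one way in set 2 and the other way in set 1. It had 2 counts over the 3 Mpez1-1 libraries, below each of the set 1 controls, and 123 over the 3 Mpez1-2 libraries against 0 in their controls. The difference between the sets was not tested, since the set 2 counts chose the gene.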

How the results depend on the processing

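The number of genes meeting the rule followed its limits. With a minimum of 5 counts it was 71 in set 1 and 84 in set 2, with 20 counts 27 and 32, with 1 CPM 48 and 49, and with up to 2 reads allowed over the controls 81 and 88. In that last case 9 of the 45 and 14 of the 49 genes met the rule in both sets. Leaving out 1 library at a time gave 41 to 66 and 44 to 71 genes. Without a filter on low counts, 43 set 1 genes rose in set 2 and 44 set 2 genes in set 1, and in a fit of all 12 libraries 39 and 45. The cause was not tested. Leave-one-out fits gave 23 to 28 and 24 to 32. Neighbours that rose numbered 33 and 42 without the filter. On the opposite strand 2 set 1 genes and 2 set 2 genes rose without the filter, and 2 set 2 genes in the fit of all 12. With 1 library left out, 0 to 1 set 2 genes rose on that strand. Of 25 named genes tested in the other set, 21 kept their call and direction in every alternative.

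Pairing of libraries by replicate number was not seen in set 1 and was at most weak in set 2. Deviations of same-numbered libraries correlated at -0.010 to 0.091 in set 1 and 0.040 to 0.084 in set 2, and in set 2 alone every sample correlated best with its own number. With the replicate number as a block, 22 set 1 genes rose in set 2 and 25 set 2 genes in set 1, and the adjusted p of Mp5g00830 went to 0.051. Mp1R-MYB19 passed with DESeq2, without the filter, in the fit of all 12, with the block, and without Mpez1-2 replicate 1 or 3. At this depth 0 reads over 3 controls leave room for a level of up to 3 counts.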
